A study of Homo sapiens with 6 samples.

Results

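The S100 genes described here are 10 members of the S100A family that lie in band 1q21 of chromosome 1: S100A2, S100A4, S100A6, S100A7, S100A8, S100A9, S100A10, S100A11, S100A14 and S100A16. They were chosen by name from the 46287 rows of a table of raw read counts, and all 10 have a row. The table holds 6 bulk RNA-seq libraries of HaCat cells, keratinocytes of human epidermis that became immortal without an introduced oncogene: 3 libraries of wild-type control cells and 3 of cells with a homozygous SDR42E1 knockout made by CRISPR/Cas9 editing. SDR42E1 encodes a short-chain dehydrogenase/reductase, and the question of the study was what its absence does to gene expression, in connection with vitamin D. Both groups were grown in the same serum-containing, high-glucose medium and harvested before confluence. The labels call the replicates biological but name no separate culture or clone for each, and no guide or edit. The p-values therefore reflect only how much these 6 libraries vary, which may be technical.

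S100 proteins are small EF-hand proteins that bind calcium, change shape and then dock onto target proteins. Most act as dimers. Inside keratinocytes they touch annexins, myosin and the cytoskeleton, and some are released as alarmins that recruit immune cells to inflamed skin. Their genes sit beside the epidermal differentiation complex, which holds the genes of the cornified envelope and the S100 fused-type proteins such as filaggrin and hornerin. S100A8 and S100A9, which together form calprotectin, and S100A7, psoriasin, are the best known alarmins of psoriatic epidermis, whereas S100A10 has lost calcium binding and works in a complex with annexin A2.

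Before the results, a few facts on the libraries. Totals ran from 11504473 to 16928201 counts, and levels are given in CPM, the counts of a gene relative to a library size scaled by the TMM method. Differences were tested with edgeR's quasi-likelihood test, two-sided, with Benjamini-Hochberg adjustment over all 12293 genes that passed a filter on low counts and a threshold of 0.05, and every adjusted p of a gene below comes from that test unless another fit is named. Of these genes 6197 passed, or 50.4%, so a call in itself is common here. SDR42E1 was lower in every library labelled knockout (21.3 ± 1.61 CPM, SD, n = 3) than in every control (47.7 ± 1.02 CPM, SD, n = 3), and was still present. Of 6 keratinocyte markers all 6 were tested, with a summed level of 5701 to 6143 CPM in control and 5022 to 5353 CPM in knockout libraries. The lower sum came from KRT5, a basal keratin that fell from a mean of 2698 to 1709 CPM, whereas TP63, COL17A1 and SFN rose and KRT14 and DSG3 did not pass the test. Other tested genes of the long arm of chromosome 1, where all members lie, numbered 540, of which 336 fell and 44 rose; their median log2 fold change was -0.32, where that of all tested genes was -0.004. What underlies that shift of the whole arm was not tested, so values of tested members are also given against it.

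The upstream sequences of 4 members are shown because S100A2 had the largest rise and S100A4 the largest fall among the 8 tested members, and because S100A14 and S100A16 are direct neighbours that both rose. Each is the stretch before the farthest upstream RefSeq start (GRCh38.p14, minus strand, 5′ to 3′), without bases that lie in an annotated exon of the gene. Capitals mark the letters TGANTCA, the AP-1 motif, or a loose NF-kB motif, GGG and CC with any 5 bases between them, on either strand. These lie at chr1:153565866-153566094, chr1:153545886-153546056, chr1:153616356-153616575 and chr1:153613146-153613387, in the order shown.
S100A2: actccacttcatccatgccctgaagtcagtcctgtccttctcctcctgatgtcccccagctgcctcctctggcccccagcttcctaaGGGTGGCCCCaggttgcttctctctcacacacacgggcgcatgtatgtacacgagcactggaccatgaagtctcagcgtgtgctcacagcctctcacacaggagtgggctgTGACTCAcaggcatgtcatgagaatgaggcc
S100A4: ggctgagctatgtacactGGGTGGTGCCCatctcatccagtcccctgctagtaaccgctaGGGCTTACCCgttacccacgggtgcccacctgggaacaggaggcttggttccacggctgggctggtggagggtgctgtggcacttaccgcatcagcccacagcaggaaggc
S100A14: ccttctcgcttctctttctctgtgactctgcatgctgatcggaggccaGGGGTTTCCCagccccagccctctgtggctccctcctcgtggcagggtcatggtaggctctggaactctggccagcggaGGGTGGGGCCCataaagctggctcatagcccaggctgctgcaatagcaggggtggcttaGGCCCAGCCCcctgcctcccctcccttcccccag
S100A16: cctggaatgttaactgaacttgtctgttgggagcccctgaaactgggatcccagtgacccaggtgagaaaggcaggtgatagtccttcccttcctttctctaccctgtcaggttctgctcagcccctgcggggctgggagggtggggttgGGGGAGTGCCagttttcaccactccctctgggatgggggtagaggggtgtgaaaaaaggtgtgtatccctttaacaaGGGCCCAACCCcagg

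The motifs were searched in the 250 bases before each start on both strands, over 14 windows of the 10 members, since S100A2, S100A8 and S100A16 have more than 1 start in the table. The AP-1 letters occurred in 1 of the 14 windows, that of S100A2, as TGACTCA beginning 52 bases before the start, and in 6.57% of all 35114 windows. The C/EBP letters TTGCNNAA also occurred in 1 member window, that of S100A11, as TTGGGCAA beginning 33 bases before the start, and in 9.05% of all windows. The NF-kB letters occurred in 10 of the 14 member windows and in 54.4% of all windows, so they separate little, and overlapping matches of that pattern are shown as 1 run of capitals. A match describes letters only, and which starts these cells use cannot be read from counts per gene.

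Most of the S100 RNA in these cells came from 6 members in both groups. Per kilobase of exon (basic transcripts of GENCODE 29), S100A2 stood highest in control cells at 402 ± 9.93 CPM per kb, followed by S100A11 (393 ± 29.3), S100A6 (330 ± 10.3), S100A14 (267 ± 7.77), S100A16 (154 ± 5.09) and S100A10 (137 ± 4.38; SD, n = 3 for each). S100A2 and S100A11 overlapped in the control libraries (396 to 413 against 368 to 425 CPM per kb) and not with lengths taken over all transcripts (321 to 371 for S100A11), while each next pair of members down to S100A10 did not overlap. S100A4 followed at 31.8 ± 1.66, S100A9 at 2.07 ± 0.70, and S100A7 (0.376 ± 0.214) and S100A8 (0.279 ± 0.0718) were near the lower limit of detection. In knockout cells S100A2 stood alone at the top with 737 ± 45.4 CPM per kb, above S100A11 at 385 ± 26.5. S100A14 (322 ± 26.4) then stood above S100A6 (300 ± 12.5), the reverse of the control order, although their knockout libraries overlapped. The S100A2 share of the level summed over the 10 members went from 23.4 ± 0.795% to 35.9 ± 0.376%, and that of S100A4 from 1.85 ± 0.119% to 0.468 ± 0.0462% (SD, n = 3).

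**Figure D1:**
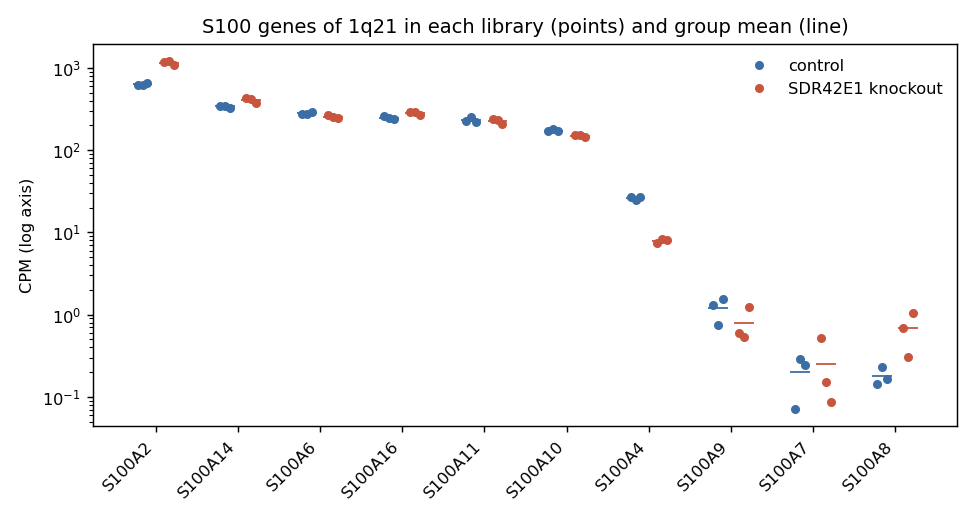
Level of each of the 10 S100 genes in CPM on a log axis, with 3 control and 3 knockout libraries as points and group means as lines. S100A2 lies higher in all knockout libraries, S100A4 lower in all of them, 6 members lie above 100 CPM in every library, and S100A7 and S100A8 lie at or below about 1 CPM.

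Of the 10 members 8 passed the filter on low counts. Among those 8, 3 rose (S100A2, S100A14 and S100A16), 3 fell (S100A4, S100A6 and S100A10), and S100A9 and S100A11 did not pass the test. Over all tested genes 24.6% rose and 25.8% fell. The median log2 fold change of the 8 tested members was -0.08. The groups did not overlap for 6 of the 8, against 56.5% of all tested genes. The family therefore did not move as a block: its members ranged from 1.84-fold higher to 3.31-fold lower. Against the other genes of the chromosome 1 long arm, an alternative scaling that moves the median of all genes by 0.32, 6 members were higher and 1, S100A4, was lower. Under that scaling 8586 of all tested genes were called. Of these calls 85.7% were higher, the same share as among the member calls.

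S100A2, an epithelial S100 protein found in basal keratinocytes, rose the most. The gene lies on the minus strand at chr1:153561108-153567890 (GRCh38). Its counts were 8626, 10728 and 7978 in control libraries and 13757, 15843 and 12275 in knockout libraries. On the CPM scale that is 621, 621 and 648 against 1190, 1203 and 1074. Every knockout library was above every control library, by a wide gap. The log2 difference came to 0.88 (SE 0.05, 1.84-fold, adjusted p = 6.65e-18), and it ranged from 0.85 to 1.20 over the alternative settings, past 2-fold only under scaling over the chromosome 1 long arm. A called rise of at least 2-fold under the main scaling was seen in 1.91% of tested genes, and in none of the 8 tested members. Of 540 other tested genes of the arm 16 had a larger rise, and 2.58% of all tested genes did. Because S100A2 was also the most abundant member, the level summed over the 10 members went from 1933 ± 9.67 to 2492 ± 144 CPM (SD, n = 3). Without S100A2 the 9 others summed to 1303 ± 22.6 and 1337 ± 74.4 CPM, and the libraries overlapped.

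S100A4, known for binding non-muscle myosin and for its link to cell migration and mesenchymal cells, fell the most. The gene lies on the minus strand at chr1:153543613-153550136. Its counts were 376, 427 and 334 in control and 85, 110 and 92 in knockout libraries, or 27.1, 24.7 and 27.1 CPM against 7.35, 8.35 and 8.05 CPM. All 3 knockout libraries lay far below all controls. The log2 difference came to -1.73 (SE 0.11, 3.31-fold lower, adjusted p = 2.40e-15), with -1.77 to -1.40 over the alternative settings. A fall of at least 2-fold was seen in 5.23% of tested genes, and 18 of the 540 other arm genes fell further. In bulk RNA, fewer cells that express a gene and less RNA per cell cannot be told apart. Over 6 fibroblast markers (2 tested, DCN at 0 in all libraries) the summed level was 4.30 to 6.19 CPM in control and 1.12 to 2.13 CPM in knockout libraries. Of the tested markers COL3A1 fell (107 counts summed over control and 4 over knockout libraries, adjusted p = 1.01e-06), and COL1A1 did not pass (91 and 50 counts, adjusted p = 0.133). The part of such cells or such a program in the S100A4 value was not tested. S100A3 lies inside an intron of the longest S100A4 transcript on the same strand and shares 0 exon bases with it.

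S100A6, calcyclin, which binds the ubiquitin-ligase adaptor CACYBP and several annexins, changed by a small amount. It had 275, 274 and 289 CPM in control and 265, 255 and 244 CPM in knockout libraries, with no overlap and a small gap. Its value of -0.135 (log2, SE 0.05, adjusted p = 0.0186) was a fall relative to all genes that turned to a rise of 0.19 (adjusted p = 9.3e-04) relative to the other genes of the chromosome 1 long arm. Without control replicate 3 the adjusted p was 0.124, and without knockout replicate 3 it was 0.075, so the call rests on those libraries. S100A10, the partner of annexin A2, had 169, 179 and 170 CPM in control and 152, 154 and 144 CPM in knockout libraries, again without overlap. Its log2 fold change of -0.20 (SE 0.05, adjusted p = 8.37e-04) was likewise a fall relative to all genes and a rise of 0.12 (adjusted p = 0.0353) relative to the arm. S100A11, which binds annexins A1 and A2 and restrains keratinocyte growth, had 229, 252 and 218 CPM in control and 240, 236 and 211 CPM in knockout libraries, and the groups overlapped. Its value was -0.03 (SE 0.06, adjusted p = 0.688) relative to all genes and 0.30 (adjusted p = 9.75e-06) relative to the arm.

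S100A14 and S100A16, epithelial members with adjacent genes on the same strand (chr1:153614255-153616986 and chr1:153606886-153613145), both rose by a small step. S100A14 had 347, 346 and 330 CPM in control and 436, 424 and 373 CPM in knockout libraries (log2 fold change 0.27, SE 0.05, adjusted p = 4.44e-05). S100A16 had 258, 246 and 243 CPM in control and 289, 290 and 270 CPM in knockout libraries (0.18, SE 0.05, adjusted p = 0.00155). In neither gene did the groups overlap, and both kept their direction and call under every alternative tried. Of the 540 other arm genes, 36 had a higher log2 fold change than S100A14 and 49 a higher one than S100A16.

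The alarmin members were scarce in these cells, and their changes are weakly determined. S100A9 had 18, 13 and 19 counts in control and 7, 7 and 14 counts in knockout libraries, with overlap on the CPM scale. The fitted log2 difference of -0.58 (SE 0.44) did not pass (adjusted p = 0.284). Without knockout replicate 3 it was -1.03 and without knockout replicate 2 it was -0.35, and neither passed. Relative to the other genes of the chromosome 1 long arm S100A9 was at -0.26 (adjusted p = 0.614 under that scaling). Of the 540 other arm genes 140 had a lower log2 fold change. S100A8 had 2, 4 and 2 counts against 8, 4 and 12, which lay apart after scaling. It was below the count filter. After scaling for library size, the ratio of its summed counts, 24 against 8, was 3.61 with a 95% exact interval of 1.57 to 9.29 that covers counting error only, and without the filter edgeR gave a log2 fold change of 1.84 (adjusted p = 0.0505). S100A7 had 1, 5 and 3 against 6, 2 and 1 counts, a ratio after the same scaling of 1.20 (0.423 to 3.42), so no difference was detectable at this depth. Reads of S100A7 could be shared with its near-identical copies S100A7A and S100A7L2, which had 0 counts in all 6 libraries. S100A8 and S100A9 are also made by myeloid cells. Of 8 myeloid markers 1, CD68, was tested, MPO and FCGR3B were at 0, and the sum was 6.33 to 9.20 CPM in control and 9.27 to 10.6 CPM in knockout libraries. Most of the sum was CD68, which did not pass the test (adjusted p = 0.0695). The summed counts of PTPRC (10 in control, 2 in knockout), CD14 (14 and 7) and LYZ (25 and 18) were lower in knockout. Those of ITGAM (20 and 35) and CSF3R (0 and 5) were higher. The part of such RNA in the S100A8 and S100A9 values was not tested.

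**Figure D2:**
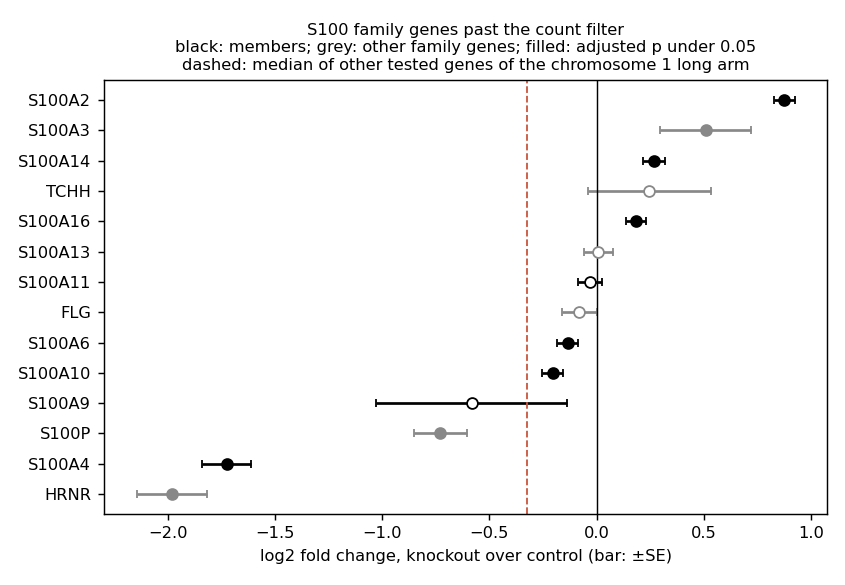
Log2 fold change of knockout over control with its SE for the 8 members (black) and 6 other family genes (grey) that passed the count filter, filled where adjusted p was under 0.05. S100A2 at 0.88 and S100A4 at -1.73 mark the ends of the members, with HRNR at -1.98 beyond, and the dashed line is the chromosome 1 long-arm median of -0.32.

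The rest of the family was read from a list of 11 other S100 genes and 7 S100 fused-type genes, of which 6 were tested. Of these 1 rose (16.7%), 2 fell (33.3%) and 3 did not pass, against 24.6% and 25.8% of all tested genes. HRNR, the fused-type gene of hornerin, fell to 4.33 ± 1.44 CPM in knockout libraries from 17.1 ± 0.891 CPM in control (-1.98 on the log2 scale, SE 0.17, adjusted p = 7.65e-12). S100P, a member on chromosome 4, fell from 18.6 ± 2.63 to 11.2 ± 0.632 CPM (-0.73, SE 0.12), and its libraries did not overlap. S100A3, a protein of the hair cuticle, rose from 3.78 ± 0.557 to 5.36 ± 0.320 CPM (0.51, SE 0.21, adjusted p = 0.0424), a call that DESeq2 (adjusted p = 0.0859), upper-quartile scaling (0.0566) and leaving out 5 of the 6 libraries each lost. S100A13, which helps export growth factors that lack a signal peptide, had 61.6 ± 4.02 and 61.8 ± 3.04 CPM (adjusted p = 0.932), and it shares 235 exon bases with S100A1 on the other strand. The filaggrin gene FLG had 61.0, 49.8 and 48.0 CPM in control and 46.1, 52.9 and 50.9 CPM in knockout libraries (log2 fold change -0.08, adjusted p = 0.436) and TCHH, the trichohyalin gene, 2.45 ± 0.138 and 2.92 ± 1.13 CPM (0.25, adjusted p = 0.50). Of the genes under the filter, S100A7A, S100A7L2, S100B, S100G and S100Z had 0 counts, which allows up to 0.069 CPM in control and 0.0829 CPM in knockout cells at 3 counts per group.

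Around the members the picture was mixed as well. Within 500000 bases of the span from S100A10 to S100A14, 28 other genes were tested. Of these 15 fell (53.6%), 4 rose (14.3%) and 9 did not pass, with a median of -0.17. Over the other tested genes of the long arm 62.2% fell and 8.15% rose, with a median of -0.32. Over all tested genes 25.8% fell and 24.6% rose. In the gap between S100A11 and S100A9, which holds the epidermal differentiation complex, 7 genes were tested. Their values ran from -1.98 for HRNR (SE 0.17) and -1.96 for IVL (SE 0.10) to 2.43 for SPRR1B (SE 0.42) and 3.39 for PRR9 (SE 0.295). SPRR1B and PRR9 had low mean levels (0.55 and 1.96 log2 CPM, against 3.5 for HRNR and 4.74 for IVL), so their rises are less well determined. From S100A9 onward 15 other genes were tested, with 10 lower, 1 higher and a median of -0.21. S100A2 and S100A4 are therefore close neighbours with opposite changes. The lower coordinate of S100A2 lies 17.5 kb farther along the chromosome than that of S100A4, and their log2 fold changes differ by 2.60.

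**Figure D3:**
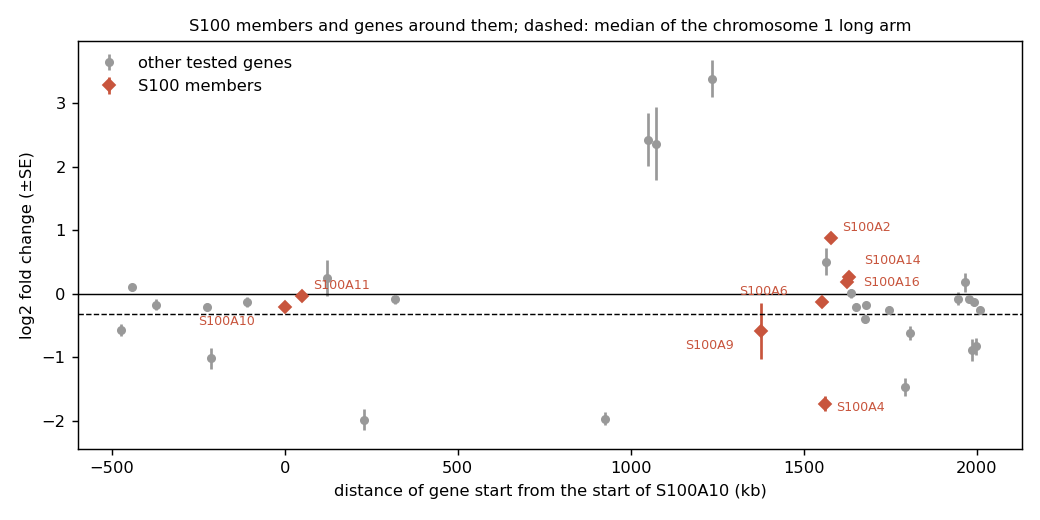
Log2 fold change with its SE against the distance of each gene's start from the start of S100A10, in kb. Start here means the lower coordinate of a gene on either strand. The 8 tested members are red diamonds and 28 other genes are grey. The members at 0 and 49.6 kb lie close to 0. S100A4 (-1.73) and S100A2 (0.88) lie close together, to the left and right of S100A3 at 1564.4 kb, and other genes follow up to 2007.8 kb.

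The proteins that S100 proteins bind or signal through were read from a list of 20 partner genes, of which 18 were tested. Of these 6 rose (33.3%), 6 fell (33.3%) and 6 did not pass, with a median of -0.005. Over all tested genes 24.6% rose and 25.8% fell. ANXA2, the partner of S100A10 and S100A11, rose from 2894 ± 103 to 4093 ± 199 CPM (log2 fold change 0.50, SE 0.05), and ANXA1, the membrane-binding partner of S100A11, from 1071 ± 41.3 to 1316 ± 42.0 CPM (0.30, SE 0.05). MYH9, the non-muscle myosin heavy chain bound by S100A4, rose by 0.50 on the log2 scale (adjusted p = 1.6e-11). ANXA11, a partner of S100A6, changed by -0.42, CACYBP by -0.39 and SUGT1, a co-chaperone bound by S100A6, by -0.38, all past the threshold. CACYBP itself lies on the long arm of chromosome 1, where the median was -0.32. Under scaling over that arm CACYBP was at -0.06 and did not pass (edgeR, adjusted p = 0.311). ANXA11 and SUGT1 lie on chromosomes 10 and 13, and they did not pass under that scaling either (adjusted p = 0.127 and 0.396). ERBB2, linked to S100A14, fell by 1.23, and TRPV6, a calcium channel brought to the membrane by S100A10 with annexin A2, fell by 1.75. Among receptors of extracellular S100 proteins, TLR4 rose from 0.621 ± 0.205 to 2.41 ± 0.590 CPM (log2 fold change 1.99, SE 0.39, adjusted p = 5.16e-05), AGER had 16 counts in control and 14 in knockout libraries, and BSG was at 402 ± 4.88 and 396 ± 17.6 CPM (adjusted p = 0.724).

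Ratios of counts within a library do not depend on how libraries are scaled, and 6 pairs were compared with a two-sided exact permutation test, in which 3 against 3 libraries cannot go below 0.10. S100A10 was lower relative to its partner: the log2 ratio of S100A10 to ANXA2 was -4.15, -3.96 and -4.08 in control and -4.79, -4.77 and -4.74 in knockout libraries, a difference of -0.70. The ratio of S100A11 to ANXA1 differed by -0.33 and that of S100A10 to its neighbour S100A11 by -0.175. ANXA2 and ANXA1 lie on chromosomes 15 and 9, so ratios to them are not free of the chromosome 1 long-arm shift (median -0.32). In the scaled fit the log2 fold changes were -0.20 for S100A10 and 0.50 for ANXA2, and -0.03 for S100A11 and 0.30 for ANXA1. S100A4 to S100A6 showed the largest shift among abundant pairs, from -3.41 ± 0.06 to -5.01 ± 0.14 (SD, n = 3; exact p = 0.10). The calprotectin pair S100A8 to S100A9 went from -2.71 ± 0.87 to -0.28 ± 0.50, a difference of 2.43 that rests on 2 to 19 counts per gene and library. These 5 pairs did not overlap between groups, and each reached the smallest p of 0.10 (0.12 adjusted over the 6 pairs by the Benjamini-Hochberg method, exact permutation test). S100A14 to S100A16 had 0.45 ± 0.04 in control and 0.54 ± 0.07 in knockout libraries with overlap (difference 0.08, exact p = 0.20), so these neighbours were not shown to have risen by different amounts.

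**Figure D4:**
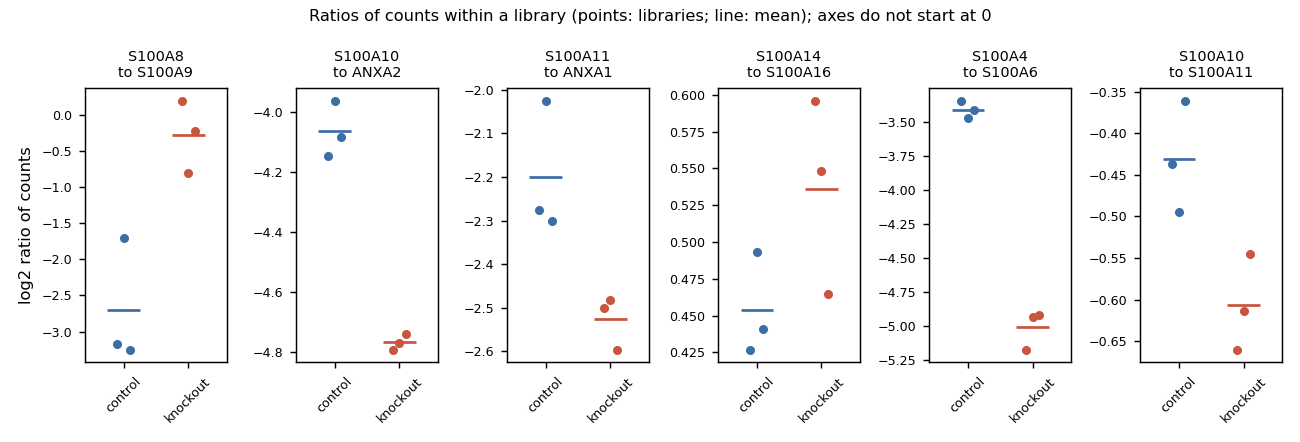
Log2 ratio of raw counts of 6 gene pairs in each library, with the group mean as a line and a separate axis for each pair. The 3 knockout points lie below the 3 control points for S100A10 to ANXA2, S100A11 to ANXA1, S100A4 to S100A6 and S100A10 to S100A11, above them for S100A8 to S100A9, and overlap for S100A14 to S100A16.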

How the data were processed

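Raw counts of reads by gene, as deposited by the authors, covered 6 libraries of stranded total RNA, and column names gave the samples. Per the submitters' processing notes the build was GRCh38; the aligner, the counter and the strand setting are not stated in the labels or the file. The test was edgeR 4.0.16 under R 4.3.3 (filterByExpr with minimum count 10 and minimum total 15, TMM scaling, robust quasi-likelihood F test, no block). Each SE was derived from the fold change and its F statistic. Alternatives were DESeq2 1.42.0, limma-voom 3.58.1, other scalings and filters, the replicate block and leaving out each library. A simulation of 3 against 3 libraries held 12186 genes, 50 of them altered at each size. In it 38% of 1.25-fold, 74% of 1.5-fold, 90% of 2-fold and 92% of 4-fold changes were recovered, with 11 false calls. In the data 50.4% of tested genes passed, a far larger share than was altered in the simulation. Those rates therefore need not hold for the comparison itself. Positions and exon lengths came from GENCODE 29 (11837 of 12293 tested genes placed), upstream sequences from RefSeq (all 10 members matched). The arm was taken from 125000000 bases on. Counts of replicates varied beyond sampling noise, with a chi-square of 2.65 to 4.49 times its degrees of freedom.

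The members, lists and tests were chosen with earlier results of these data known. Named genes were the members, every other S100 family gene past the count filter, ANXA1 and ANXA2, and the 8 further partners with the smallest adjusted p, of which 1 is not reported here by name; AGER, BSG and genes of the epidermal differentiation complex were named after their values were seen. Of 5 melanocyte markers 1 was tested, with a summed level of 3.18 to 3.57 CPM in control and 1.57 to 2.89 CPM in knockout libraries.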

Additional observations from a re-analysis of the deposited data

How the results depend on the processing

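Of the 8 tested members, 6 passed under DESeq2, limma-voom, the other genome-wide scalings and both filters, 7 under scaling over the chromosome 1 long arm (6 higher and 1 lower), and 5 to 6 without 1 library. S100A2, S100A4, S100A14 and S100A16 kept direction and call under all 14 alternatives. The arm scaling moved all genes up by 0.32 by construction and turned 7 followed genes from negative to positive: S100A6 (0.19), S100A10 (0.12), S100A11 (0.30), FLG (0.24), AHNAK (0.27), BSG (0.30) and COPS5 (0.22). Under it 5 of the 6 other family genes passed, against 3, and 85.7% of all calls were on the higher side, against 48.8%. Over all genes 6197 passed, 5492 with DESeq2, 6149 with upper-quartile scaling and 5338 to 6074 without 1 library. Of 33 tested genes followed one by one, 15 kept direction and call wherever they had a value, and 2 more, TCHH and CYBB, never passed but changed sign.

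Deviations of same-numbered libraries correlated by 0.03, -0.07 and 0.01, which gives no ground for pairing them. A fit that used the number as a replicate block called 6425 genes, 6 members, 3 other family genes, 12 partners and 20 genes around the cluster. Counts of partners ran from 10 to 14 and of genes around the cluster from 17 to 21 over all settings. Ratio differences without 1 library ran from 2.16 to 2.93 for S100A8 to S100A9. The order of levels was the same with lengths over all transcripts, chosen after seeing the data. Members below about 2 CPM are limited by depth.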
